A study of Drosophila melanogaster with 3 samples.

Results

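The wide protected regions described here are the peaks of 150 nt or more in 3 lists of RNA stretches bound by the exon junction complex (EJC) in Drosophila melanogaster S2 cells. They were chosen by their width alone, the end minus the start of each listed interval. The rule found 1978 of 87432 peaks: 167 of 34945 in the eIF4AIII/Y14 list, 1482 of 36393 in the Btz/eIF4AIII list and 329 of 16094 in the Y14/eIF4AIII list. They are set below against the 85454 narrower peaks of the same lists. Because width chose them, their widths and their number are a description, and no test was made on them.

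The EJC is placed on mRNA by splicing, a short distance upstream of each junction of exons where it binds, and stays there until the first ribosome removes it. Its core holds the RNA-clamping helicase eIF4AIII, the pair Y14 and Mago, and Btz (Barentsz), which links the complex to RNA localisation and decay. In a nuclease digest RNA covered by protein survives as short fragments, and a peak is a stretch of the genome that such fragments cover with no gap or only with gaps too short to be listed.

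The S2 line is an established Drosophila line with hemocyte-like properties. Cells carried 1 copper-inducible tagged EJC protein (10 to 50 µM CuSO4), grew for 72 h and were given 100 µg/ml cycloheximide for 2 h, which stops ribosomes. All 3 purifications share these treatments. Complexes were taken by the tag, selected on oligo(dT), cut with micrococcal nuclease (MNase) for 15 min and taken again through a second, endogenous EJC protein. The eIF4AIII/Y14 library came from tagged eIF4AIII followed by Y14 with 0.5 units of MNase. The Btz/eIF4AIII library came from tagged Btz followed by eIF4AIII with 0.5 units, and the Y14/eIF4AIII library from tagged Y14 followed by eIF4AIII with 0.3 units. Each purification had 1 library, so differences between them have no replicate check and no p-value is given. No purification without the complex was analysed here, so the level of background at wide peaks is not known.

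Wide peaks were rare in the eIF4AIII/Y14 list and most frequent in the Btz/eIF4AIII list. The wide share was 0.478% in eIF4AIII/Y14 (0.408 to 0.556, a 95% interval), 4.07% in the Btz/eIF4AIII list (3.87 to 4.28) and 2.04% in the Y14/eIF4AIII list (1.83 to 2.27). The intervals cover counting error only. Most wide peaks were not far over the minimum. Their median width was 174 nt in eIF4AIII/Y14 (quartiles 159.5 and 202.5), against 31 nt for the narrower peaks of that list. In Btz/eIF4AIII it was 185 nt (164 and 224.75), against 52 nt, and in Y14/eIF4AIII 178 nt (162 and 210), against 47 nt. At 200 nt or more there were 45, 556 and 100 peaks in the eIF4AIII/Y14, Btz/eIF4AIII and Y14/eIF4AIII lists, and at 300 nt or more 9, 150 and 32. Only Btz/eIF4AIII with 29 peaks and Y14/eIF4AIII with 4 had any of 500 nt or more, and of 1000 nt or more they had 6 and 1. The widest peaks measured 456 nt in eIF4AIII/Y14, 2283 nt for Btz/eIF4AIII and 1012 nt in Y14/eIF4AIII.

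**Figure D1:**
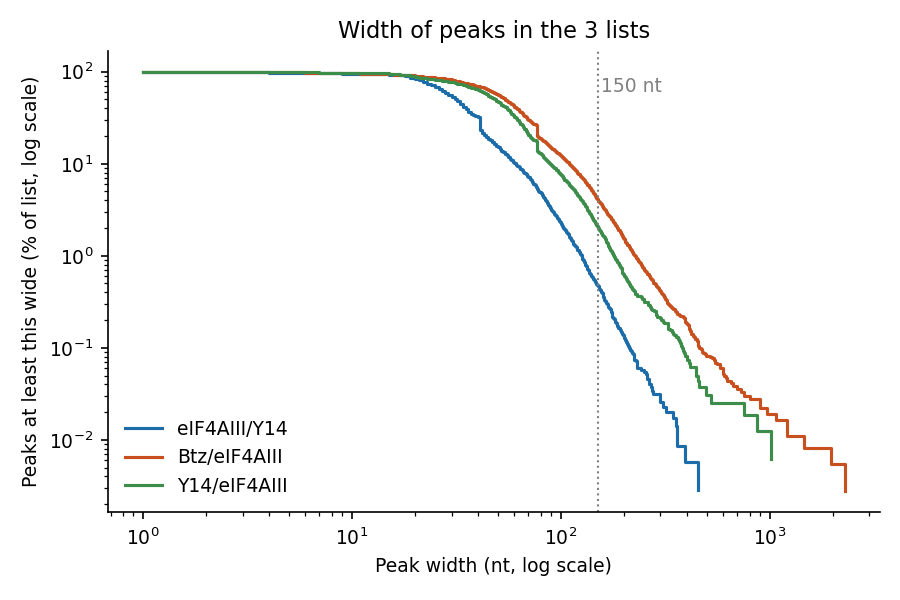
Share of each list (percent, log scale) made of peaks at least as wide as the value on the x axis (nt, log scale), 1 line per list, with the 150 nt minimum dotted. At 150 nt the lines stand at 4.07% for Btz/eIF4AIII, 2.04% for Y14/eIF4AIII and 0.478% for eIF4AIII/Y14, and each falls in a step at the commonest width of its list, 40 nt in eIF4AIII/Y14 and 76 nt in the other lists.

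The commonest width was not the same in all lists, and the order of the wide shares changed when the minimum was set by it. The commonest width was 40 nt in eIF4AIII/Y14, with 3137 peaks against 271 peaks of the width 1 nt below and 449 of the width 1 nt above. In Btz/eIF4AIII it was 76 nt, with 2331 peaks against 107 below and 242 above, and in Y14/eIF4AIII it was also 76 nt, with 631 peaks against 48 and 64. The minimum of 150 nt is thus 3.75 times the commonest width in eIF4AIII/Y14 and 1.97 times that in the other lists. With the minimum set instead at 2 times the commonest width of each list, the share was 4.79% in eIF4AIII/Y14 (1674 peaks of 80 nt or more; 4.57 to 5.02), 3.92% for Btz/eIF4AIII (1425 peaks of 152 nt or more; 3.72 to 4.12) and 1.94% in Y14/eIF4AIII (312 peaks; 1.73 to 2.16). On that scale the eIF4AIII/Y14 list had the highest share and not the lowest. At 3 times it was again highest, with 1.16%, 0.981% and 0.379% in eIF4AIII/Y14, Btz/eIF4AIII and Y14/eIF4AIII. At 4 times the commonest width Btz/eIF4AIII led with 0.393%, beside 0.358% in eIF4AIII/Y14 and 0.193% in Y14/eIF4AIII. The sources used here do not give the length of the sequenced reads, and its part in the difference between the lists was not tested.

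The minimum itself cut through a smooth slope. Peaks of 150 nt and of 1 nt less numbered 3 and 2 in eIF4AIII/Y14, 31 and 25 among the Btz/eIF4AIII peaks, and 7 and 9 in Y14/eIF4AIII. Those in the 10 nt from the minimum upward and in the 10 nt below it numbered 42 and 45 in eIF4AIII/Y14, 276 and 395 among the Btz/eIF4AIII peaks, and 68 and 105 in Y14/eIF4AIII. In every list neighbouring peaks of the same strand lay at least 25 nt apart, so that pieces closer than this are present only in joined form. A wide peak of 1 protected stretch and a wide peak of several joined pieces cannot be told apart in these lists.

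The score of each peak, multiplied by its width, is a whole number, which fits a mean number of reads over each base, and it is called depth here. Depths are not scaled between libraries and are compared within a list. Wide peaks were deeper than narrower peaks in all 3 lists. In eIF4AIII/Y14 their median depth was 76.1 reads per base (quartiles 42.3 and 199), against 52 for narrower peaks (18 and 127), a ratio of 1.46. In Btz/eIF4AIII it was 265 (138 and 444), against 86.9 (12 and 318), a ratio of 3.05. In Y14/eIF4AIII it was 340.1 (91.1 and 613), against 32 (7 and 321), a ratio of 10.6. The lower quartile of the wide peaks lay far above that of the narrower peaks in each list, whereas the upper quartiles lay within 2 times of each other.

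The lower end of the depth range was nearly empty of wide peaks. Depths under 5 reads per base occurred in 1 of the 167 wide eIF4AIII/Y14 peaks (0.599%), against 4.08% of the narrower ones. They occurred in 10 of the 1482 wide Btz/eIF4AIII peaks (0.675%), against 8.29%, and in 9 of the 329 wide Y14/eIF4AIII peaks (2.74%), against 12.0%. The deepest 25% of each list held 34.7% of the wide eIF4AIII/Y14 peaks (27.5 to 42.5), against 24.9% of the narrower ones, 39.9% of the wide Btz/eIF4AIII peaks (37.4 to 42.4), against 24.4%, and 50.2% of the wide Y14/eIF4AIII peaks (44.6 to 55.7), against 24.5%. The deepest single wide peak reached 4040.2 reads per base in eIF4AIII/Y14, against 33038 for the deepest narrower one. It reached 68646 in Btz/eIF4AIII, against 58866, and 28069 in Y14/eIF4AIII, against 49594.

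**Figure D2:**
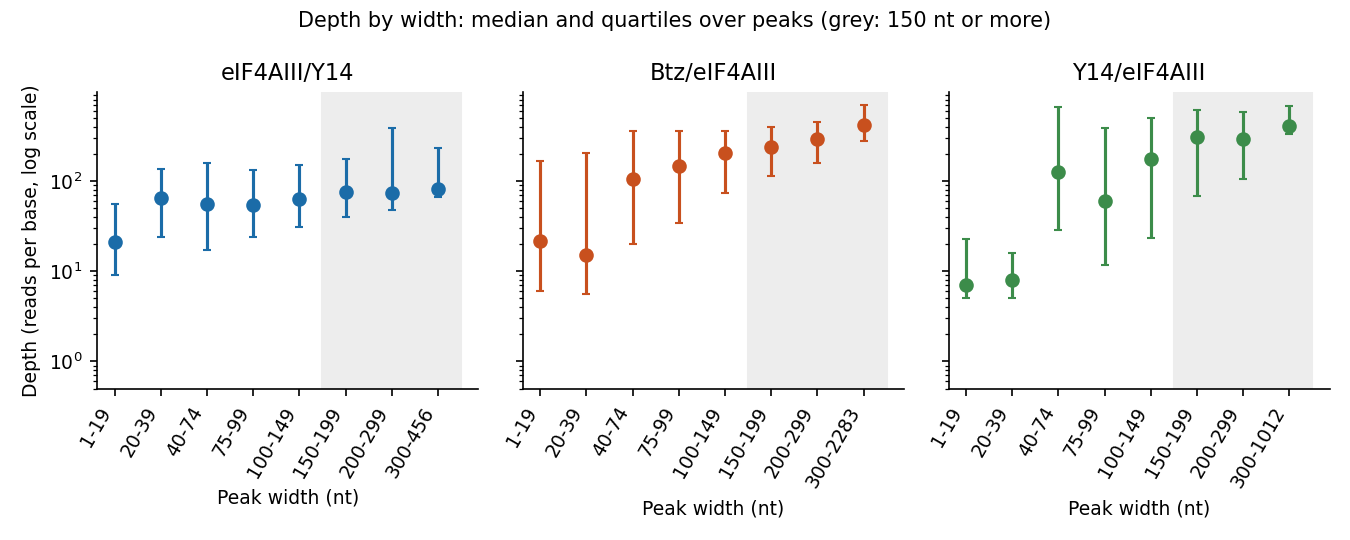
Depth of peaks (reads per base, log scale) by class of width (nt) in each list. Points are medians over peaks, bars run between the quartiles, and the classes of 150 nt or more are shaded. In Btz/eIF4AIII the median was 236, 292 and 416 in the 3 wide classes, against 202 between 100 nt and the minimum, while in eIF4AIII/Y14 it was 76.2, 74.0 and 81.7, against 63.0.

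Depth followed width more closely in some lists than in others. Over all peaks of a list, the Spearman coefficient of width with depth was 0.17 in eIF4AIII/Y14 (n = 34945), 0.35 for Btz/eIF4AIII (n = 36393) and 0.47 in Y14/eIF4AIII (n = 16094), and within the wide peaks alone it was 0.06, 0.19 and 0.11. Width and depth of a peak come from the same reads of 1 library. In Y14/eIF4AIII the medians did not climb evenly: peaks of 40 to 74 nt had a median of 127 reads per base, those of 75 to 99 nt 60.3, those from 100 nt to the minimum 173, and those from the minimum to under 200 nt 305.

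Wide peaks held a larger part of the sequence than of the peak number, which a choice by width fixes in advance. They also held a larger part of the reads, and that measure contains the width too. They covered 32.0 of 1235 kb in eIF4AIII/Y14 (2.59%), 321.6 of 2242 kb for Btz/eIF4AIII (14.3%) and 68.3 of 853 kb in Y14/eIF4AIII (8.00%). Their share of the summed depth, the depth times the width of each peak, was 3.44%, 25.5% and 13.98% in eIF4AIII/Y14, Btz/eIF4AIII and Y14/eIF4AIII. A few regions weighed heavily in these sums: the 5 wide peaks with the largest summed depth held 25.5% of that of all wide peaks in eIF4AIII/Y14, 17.0% for Btz/eIF4AIII and 28.9% in Y14/eIF4AIII. At 2 times the commonest width of each list, peaks over that minimum held 16.7%, 25.1% and 13.8% of the summed depth in eIF4AIII/Y14, Btz/eIF4AIII and Y14/eIF4AIII, so that eIF4AIII/Y14 no longer stood lowest.

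A depth that is a whole number of reads per base, as when all reads of a peak share both borders, was nearly absent from wide peaks. It was found in 1 of 167 wide eIF4AIII/Y14 peaks (0.599%; 0.0152 to 3.29), against 53.6% of narrower ones, in 8 of 1482 wide Btz/eIF4AIII peaks (0.540%; 0.233 to 1.06), against 42.8%, and in 2 of 329 wide Y14/eIF4AIII peaks (0.608%; 0.0737 to 2.18), against 55.8%. If the summed depth were unrelated to the width, 0.548%, 0.513% and 0.528% of the wide peaks of eIF4AIII/Y14, Btz/eIF4AIII and Y14/eIF4AIII would give a whole number. The rarity was already present below 150 nt, in peaks split, without finer steps, at the commonest width of each list. Between that width and the minimum of 150 nt, whole-number depths were found in 2.28% of eIF4AIII/Y14, 1.10% of Btz/eIF4AIII and 0.532% of Y14/eIF4AIII peaks, against 68.0%, 49.6% and 62.2% of peaks from 15 nt up to that width. Wide peaks thus shared the rarity of whole-number depths with all peaks over the commonest width of their list.

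Most wide peaks held whole peaks of the other purifications. On the same strand, 108 of 167 wide eIF4AIII/Y14 peaks (64.7%; 56.9 to 71.9) had at least 1 complete peak of another list inside, against 8.54% of narrower peaks. The share was 72.5% for wide Btz/eIF4AIII peaks (1075 of 1482; 70.2 to 74.8), against 24.7% for narrower ones, and 79.6% for wide Y14/eIF4AIII peaks (262 of 329; 74.9 to 83.9), against 18.0%. Over all peaks of these lists the shares were 8.81%, 26.7% and 19.2%. With the strand of the other lists exchanged, 0.599%, 1.21% and 2.13% of the wide peaks held a peak, against 0.175%, 0.447% and 0.374% of the narrower ones. A wider interval can hold more by its size alone, and the values per length are given below.

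The contents differed by list. Of the wide eIF4AIII/Y14 peaks, 74 (44.3%) held a Btz/eIF4AIII peak and 68 (40.7%) a Y14/eIF4AIII peak. Of the wide Btz/eIF4AIII peaks, 944 (63.7%) held a peak of eIF4AIII/Y14 and 602 (40.6%) one of Y14/eIF4AIII. Of the wide Y14/eIF4AIII peaks, 228 (69.3%) held an eIF4AIII/Y14 peak and 45.3% a Btz/eIF4AIII peak. Among wide Btz/eIF4AIII peaks 629 held 1 eIF4AIII/Y14 peak, 248 held 2 and 67 held 3 or more. In all, 1377 of the 34945 eIF4AIII/Y14 peaks (3.94%) lay inside a wide Btz/eIF4AIII peak and 764 of the 16094 Y14/eIF4AIII peaks (4.75%) did so. Peaks of both other lists were held by 34 wide eIF4AIII/Y14 peaks (20.4%), 471 wide Btz/eIF4AIII peaks (31.8%) and 115 wide Y14/eIF4AIII peaks (35.0%).

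**Figure D3:**
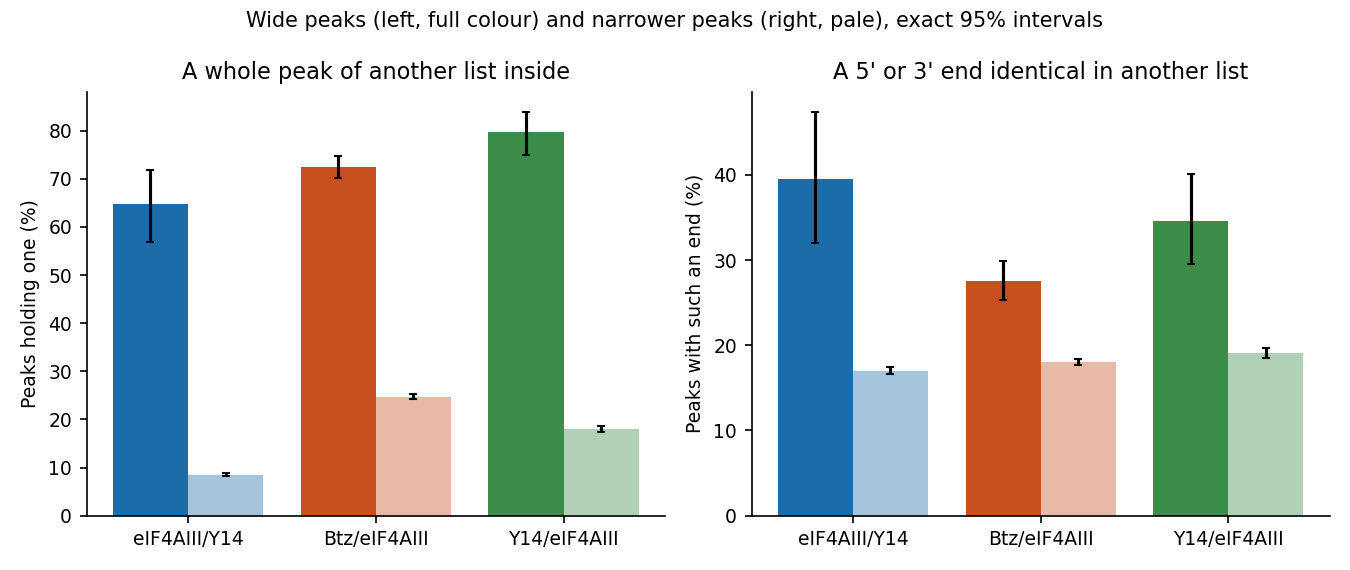
Left, share of peaks (percent) that held a complete peak of either other list on the same strand; right, share with a 5' or 3' end at the identical base of another list. Full colour marks wide peaks and pale colour narrower peaks of each list, with exact 95% intervals: wide peaks stood at 64.7% to 79.6% on the left, against 8.54% to 24.7%, and at 27.5% to 39.5% on the right, against 17.0% to 19.1%.

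Per length, with the other lists counted together, wide peaks held slightly fewer peaks than narrower ones, but the pairs of lists went both ways. Counting the middle base of each peak of both other lists, wide eIF4AIII/Y14 peaks had 9.85 per kb, against 10.4 in narrower peaks. Wide Btz/eIF4AIII peaks had 7.99 per kb, against 8.50, and wide Y14/eIF4AIII peaks had 10.8, against 11.0. In 3 of the 6 pairs the wide peaks were richer: Y14/eIF4AIII middles numbered 4.60 per kb of wide eIF4AIII/Y14 peaks, against 3.08 in narrower ones, and 3.12 per kb of wide Btz/eIF4AIII peaks, against 2.57, and eIF4AIII/Y14 middles numbered 6.05 per kb of wide Y14/eIF4AIII peaks, against 5.32. In the other pairs they were poorer. Btz/eIF4AIII middles numbered 5.25 per kb of wide eIF4AIII/Y14 peaks, against 7.32, and 4.79 per kb of wide Y14/eIF4AIII peaks, against 5.68, and eIF4AIII/Y14 middles numbered 4.88 per kb of wide Btz/eIF4AIII peaks, against 5.92. The share of covered bases, in contrast, was higher in wide peaks for every pair of lists. Btz/eIF4AIII peaks covered 64.4% of the bases of wide eIF4AIII/Y14 peaks, against 39.6% of those of narrower peaks, and Y14/eIF4AIII peaks covered 50.8%, against 15.4%. In wide Btz/eIF4AIII peaks the values were 26.1% for eIF4AIII/Y14, against 21.5%, and 26.2% for Y14/eIF4AIII, against 13.1%. In wide Y14/eIF4AIII peaks eIF4AIII/Y14 covered 43.4%, against 21.8%, and Btz/eIF4AIII 65.4%, against 37.0%.

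The peaks enclosed by wide peaks were broader than the other peaks of their own list, and in most pairs deeper. Y14/eIF4AIII peaks inside wide Btz/eIF4AIII peaks had a median width of 61.5 nt and a median depth of 91.0 reads per base, against 46 nt and 31.5 for those that touched no wide Btz/eIF4AIII peak. Btz/eIF4AIII peaks inside wide Y14/eIF4AIII peaks had 76 nt and 178 reads per base, against 53 nt and 94, and those inside wide eIF4AIII/Y14 peaks 63.5 nt and 270.0, against 53 nt and 94.7. The eIF4AIII/Y14 peaks inside wide Btz/eIF4AIII peaks were wider, 40 nt against 30 nt, at almost the same depth, 55.3 against 52 reads per base. Of these, 51.4% (48.7 to 54.1) lay above the median depth of their list, against 49.9% of those elsewhere.

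A large minority of wide Btz/eIF4AIII peaks had no counterpart at all. Touching by at least 1 base of either other list was seen for 163 of 167 wide eIF4AIII/Y14 peaks (97.6%), against 46.6% of narrower ones, for 1199 of 1482 wide Btz/eIF4AIII peaks (80.9%), against 44.0%, and for 320 of 329 wide Y14/eIF4AIII peaks (97.3%), against 54.0%. This leaves 4, 283 and 9 wide peaks of eIF4AIII/Y14, Btz/eIF4AIII and Y14/eIF4AIII that neither other list touched. The 283 in Btz/eIF4AIII (19.1%; 17.1 to 21.2) had a median width of 172 nt and a median depth of 211 reads per base. The 683 touched by both other lists (46.1%) had medians of 199 nt and 361 reads per base.

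The ends of wide peaks recurred between lists more often than those of narrower peaks. A 5' or 3' end at the identical base of the same end of a peak in another list was found for 66 wide eIF4AIII/Y14 peaks (39.5%; 32.1 to 47.4), against 17.0% of narrower ones. It was found for 408 wide Btz/eIF4AIII peaks (27.5%; 25.3 to 29.9), against 18.0%, and for 114 wide Y14/eIF4AIII peaks (34.7%; 29.5 to 40.1), against 19.1%. Over all peaks the shares were 17.1%, 18.4% and 19.4% in eIF4AIII/Y14, Btz/eIF4AIII and Y14/eIF4AIII. Each peak has 1 end of each kind whatever its width, but wide peaks were also touched more often. Among touched peaks only, the shares were 40.5% in wide eIF4AIII/Y14 peaks, against 36.5% in narrower ones, 34.0% in wide Btz/eIF4AIII peaks (31.3 to 36.8), against 41.0% (40.2 to 41.7), and 35.6% in wide Y14/eIF4AIII peaks, against 35.3%. In Btz/eIF4AIII the intervals did not meet and wide peaks stood lower. In the other lists the intervals met.

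Both kinds of end recurred about equally. In wide eIF4AIII/Y14 peaks 22.2% of 5' ends and 22.8% of 3' ends recurred, in wide Btz/eIF4AIII peaks 15.3% and 16.2%, and in wide Y14/eIF4AIII peaks 18.8% and 19.8%. In most cases only 1 end matched: 59 of the 408 wide Btz/eIF4AIII peaks with a match had both ends matched, 9 of 66 in eIF4AIII/Y14 and 13 of 114 in Y14/eIF4AIII. Intervals identical at both ends in at least 2 lists numbered 13 among wide peaks. Both ends matched those of a single peak of another list in 3.59% of wide eIF4AIII/Y14 peaks (1.33 to 7.66), against 1.39% of narrower ones, in 0.877% of wide Btz/eIF4AIII peaks (0.468 to 1.50), against 1.65%, and in 2.43% of wide Y14/eIF4AIII peaks (1.06 to 4.73), against 2.50%.

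Around the ends of wide Btz/eIF4AIII peaks the coverage by eIF4AIII/Y14 was uneven. It was highest 20 nt inside the 3' end, where eIF4AIII/Y14 peaks covered 39.8% of the 1482 wide Btz/eIF4AIII peaks (37.3 to 42.4). At the same distance inside the 5' end they covered 22.1% (20.0 to 24.3). Of the 576 wide peaks with coverage at only 1 of these bases, 419 had it at the 3' side and 157 at the 5' side. Y14/eIF4AIII coverage at the same bases was 25.1% at the 3' side and 22.7% at the 5' side. The distance was chosen after the profile had been seen, so its height is a description.

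**Figure D4:**
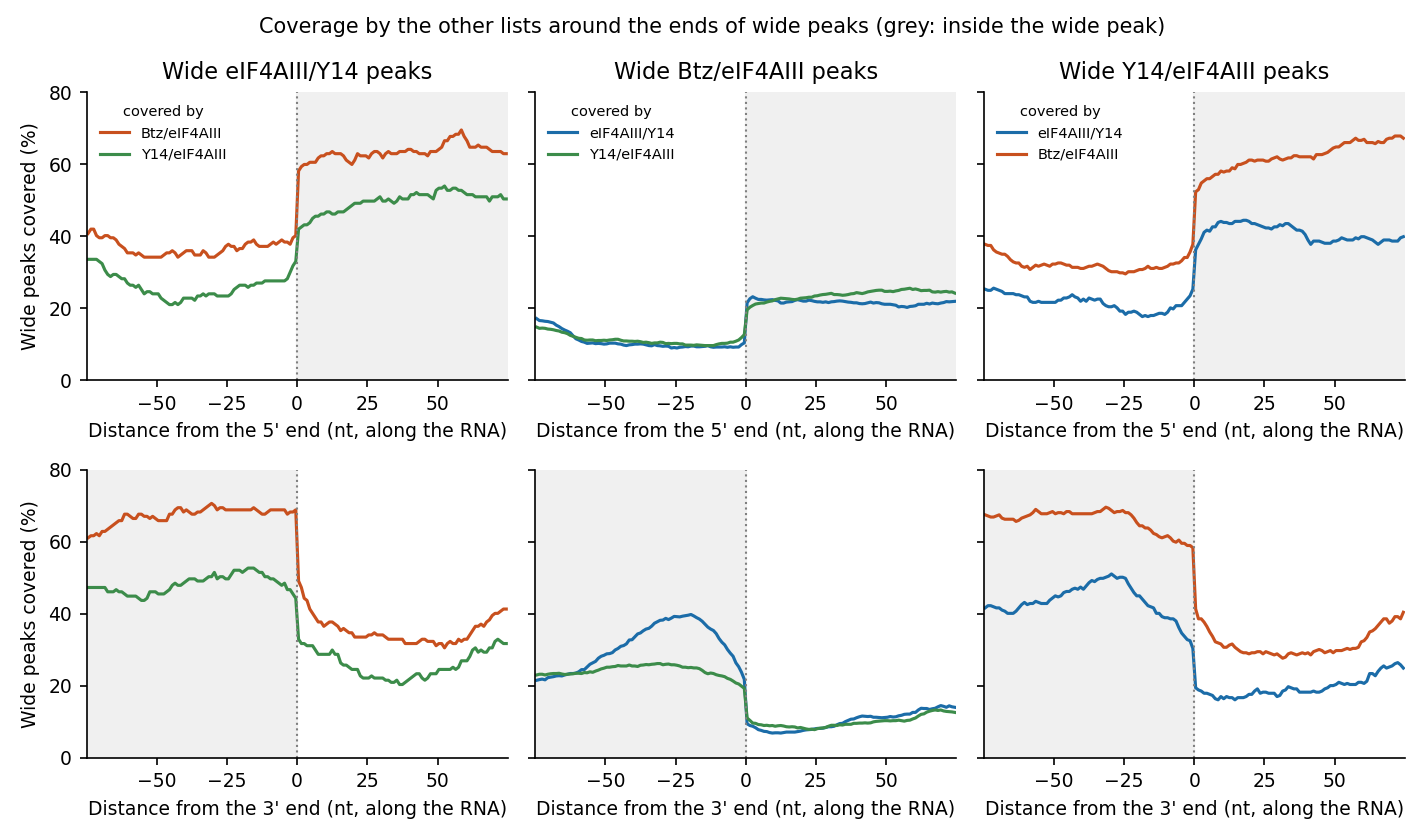
Share of wide peaks (percent) covered by each other list at every distance (nt, along the RNA) from the 5' end (upper row) and the 3' end (lower row), with the inside of the wide peak shaded. Around wide Btz/eIF4AIII peaks the eIF4AIII/Y14 line reaches 39.8% at 20 nt inside the 3' end and no more than 23.1% inside the 5' end.

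The uneven coverage was larger where another peak followed at a set distance. Among the 365 wide Btz/eIF4AIII peaks whose next Btz/eIF4AIII peak began 50 to 75 nt downstream, the base 20 nt inside the 3' end was covered by eIF4AIII/Y14 in 58.9% (53.7 to 64.0), against 33.6% (30.8 to 36.4) of the other 1117. The 5' side showed no such split, at 23.0% and 21.8%. Narrower Btz/eIF4AIII peaks of 50 nt or more had the same lean, with 26.4% at the 3' side and 16.2% at the 5' side, so it was not particular to wide peaks. This distance was picked from the Btz/eIF4AIII profile. In wide peaks of the other lists coverage there was higher at the 3' side, but the intervals of the sides met. In wide Y14/eIF4AIII peaks eIF4AIII/Y14 covered 45.0% (39.5 to 50.5) at the 3' side and 44.1% (38.6 to 49.6) at the 5' side at 20 nt. At 30 nt, where coverage inside the 3' end of these peaks was highest, it covered 51.1% and 42.6%. In wide eIF4AIII/Y14 peaks Btz/eIF4AIII covered 68.9% (61.2 to 75.8) at the 3' side and 59.9% (52.0 to 67.4) at the 5' side. With the next peak of the own list 50 to 75 nt downstream, the values at 20 nt were 85.3% at the 3' side and 61.8% at the 5' side in the 34 such eIF4AIII/Y14 peaks, and 58.7% and 41.3% in the 46 such Y14/eIF4AIII peaks. In the remaining 133 eIF4AIII/Y14 peaks they were 64.7% and 59.4%. In the remaining 283 Y14/eIF4AIII peaks they were 42.8% and 44.5%, with no lean to the 3' side.

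Wide peaks had close neighbours in their own list. The next peak downstream began 50 to 75 nt away for 20.4% of wide eIF4AIII/Y14 peaks, against 9.97% of narrower ones, for 24.6% of wide Btz/eIF4AIII peaks (22.5 to 26.9), against 17.0%, and for 13.98% of wide Y14/eIF4AIII peaks, against 7.04%. Distances of 25 to 49 nt were also commoner, with 17.4%, against 5.77%, in eIF4AIII/Y14, 12.7%, against 6.22%, for Btz/eIF4AIII and 14.9%, against 3.85%, in Y14/eIF4AIII. The median distance downstream was 113 nt, against 389 nt, in eIF4AIII/Y14, 118 nt, against 288 nt, for Btz/eIF4AIII and 238 nt, against 1121 nt, in Y14/eIF4AIII. Another wide peak of the same list and strand lay within 1000 nt of 29.3% of the wide eIF4AIII/Y14 peaks, 43.0% of the wide Btz/eIF4AIII peaks and 34.7% of the wide Y14/eIF4AIII peaks. The share of narrower peaks with a wide peak so near was not computed, so these values have no background beside them.

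Some gaps between peaks of 1 list lay wholly inside a peak of another, and wide peaks, though few, held a large part of them. Only a peak at least as wide as a gap can hold it, and width is the rule that chose the wide peaks. Narrower peaks had median widths of 31, 52 and 47 nt in eIF4AIII/Y14, Btz/eIF4AIII and Y14/eIF4AIII. Many of them could not hold a gap of 50 to 75 nt, and shares among peaks able to do so were not computed. Of the 4651 gaps of 50 to 75 nt in eIF4AIII/Y14 and Y14/eIF4AIII, 223 (4.79%; 4.20 to 5.45) lay inside a wide Btz/eIF4AIII peak, against 139 (2.99%) inside a narrower one. At 50 to 75 nt wide eIF4AIII/Y14 peaks held 43 gaps of the other lists (0.578%), against 69 (0.927%) in narrower ones, and wide Y14/eIF4AIII peaks 83 (0.848%), against 92 (0.94%). Gaps of 25 to 49 nt lay less often in wide than in narrower peaks of every list, with 48, against 143, in eIF4AIII/Y14, 328, against 347, for Btz/eIF4AIII and 131, against 166, in Y14/eIF4AIII. At 100 to 200 nt, which few narrower peaks can span, the counts were 9, against 1, in eIF4AIII/Y14, 196, against 6, for Btz/eIF4AIII and 34, against 1, in Y14/eIF4AIII. Gaps of 50 to 75 nt that 2 lists shared border for border were also counted. Of 197 such gaps in eIF4AIII/Y14 and Y14/eIF4AIII, 3 lay inside a wide Btz/eIF4AIII peak and 0 inside a narrower one. Of 981 in eIF4AIII/Y14 and Btz/eIF4AIII, 6 lay inside a wide Y14/eIF4AIII peak and 15 inside a narrower one, and of 356 in Btz/eIF4AIII and Y14/eIF4AIII, 4 lay inside a wide eIF4AIII/Y14 peak and 4 inside a narrower one.

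Wide regions were mostly wide in 1 list only. Overlapping wide peaks merged into 1730 regions, of which 1545 (89.3%) came from 1 list, 8.61% from 2 and 36 (2.08%) from all 3. The same shares for regions merged from all peaks were not computed, so these have no background beside them. Unequal list sizes alone limit the overlap, because 1482 of the 1978 wide peaks were of Btz/eIF4AIII. As a share of each list, 87 of 167 wide eIF4AIII/Y14 peaks (52.1%) and 165 of 329 wide Y14/eIF4AIII peaks (50.2%) overlapped a wide peak of another list, but 181 of 1482 wide Btz/eIF4AIII peaks (12.2%) did, the Btz/eIF4AIII list being the one with most wide peaks. The largest class by far was the 1301 regions wide in Btz/eIF4AIII alone (75.2%). In 32 places wide peaks of all 3 lists shared common bases. There the median width was 183.5 nt in eIF4AIII/Y14, 285 nt for Btz/eIF4AIII and 221 nt in Y14/eIF4AIII, and 160.5 nt were common to the 3.

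The place with the deepest wide peaks in all 3 purifications was on 2R, + strand (coordinates are those of the lists, 1-based, release 5 by their sequence names). The peak ran from 13504258 to 13504421 in eIF4AIII/Y14 at 4040.2 reads per base, from 13504260 to 13504428 for Btz/eIF4AIII at 68646 and from 13504256 to 13504428 in Y14/eIF4AIII at 28069. It ranked 51st, 1st and 3rd by depth among all peaks of these lists, and between lists its left borders lay within 4 nt and its right borders within 7 nt. On 2R, - strand, peaks of 167, 180 and 179 nt in eIF4AIII/Y14, Btz/eIF4AIII and Y14/eIF4AIII between 8048629 and 8048809 had depths of 1414, 2778 and 3999. On X, + strand, peaks of 152, 158 and 173 nt ended at the same base, 10242370, with depths of 910, 494 and 7036. In both places the borders lay close together in the 3 lists, although the depths did not keep the same order.

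Other shared places kept their position but not their borders. On 2L, - strand, between 22428190 and 22428788, the peaks measured 360 nt in eIF4AIII/Y14, 599 nt for Btz/eIF4AIII and 268 nt in Y14/eIF4AIII, with 188 nt in common. Their depths were 436, 3159 and 751 reads per base. On 3R, + strand, between 11864992 and 11865267, widths of 206, 159 and 189 nt had only 89 nt in common, at depths of 545, 529 and 468.

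The 3 widest Btz/eIF4AIII peaks differed in what the other purifications held there. The widest, of 2283 nt on 3R, + strand (23526369 to 23528651), had 3003 reads per base. Inside it lay only 1 eIF4AIII/Y14 peak of 20 nt at 48 reads per base and 1 Y14/eIF4AIII peak of 40 nt at 4.8, which covered 0.876% and 1.75% of its length. The next, of 1958 nt on 2R, + strand (7781060 to 7783017), had 2208 reads per base and held 13 eIF4AIII/Y14 and 8 Y14/eIF4AIII peaks, the most of any wide peak. These covered 50.1% and 55.7% of it, and the widest of them measured 344 nt and 312 nt. The last, of 1451 nt on 2L, + strand (5032500 to 5033950), had 1184 reads per base and held 9 eIF4AIII/Y14 peaks and 2 Y14/eIF4AIII peaks, which covered 63.7% and 98.3%. The wider of those Y14/eIF4AIII peaks, of 1012 nt, was the widest of its own list and ended at the same base, 5033950. So the same purification had a long stretch almost without the other lists and long stretches that the other lists covered in pieces.

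**Figure D5:**
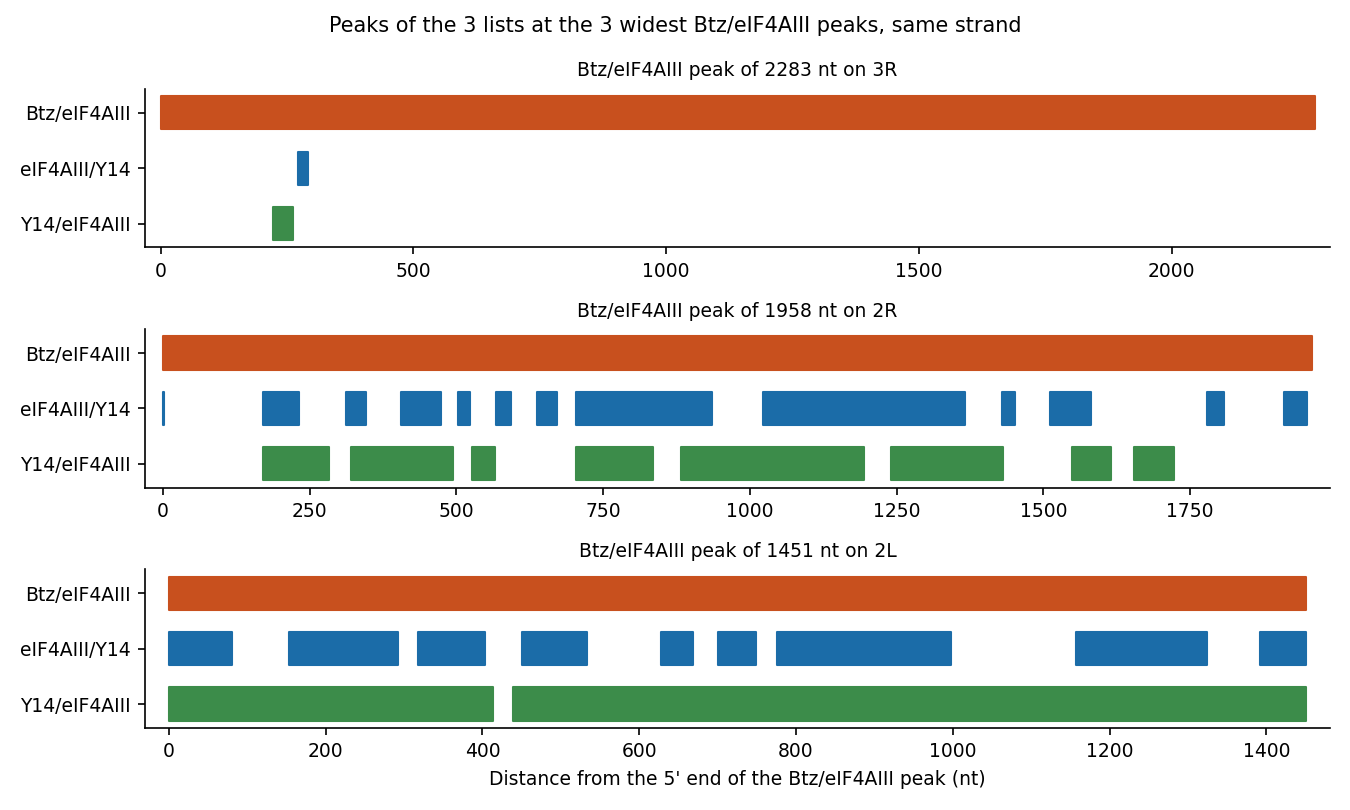
Peaks of the 3 lists on the same strand at the 3 widest Btz/eIF4AIII peaks, drawn to scale by distance from the 5' end of the Btz/eIF4AIII peak (nt). The peak of 2283 nt holds 1 short peak of each other list, the peak of 1958 nt holds 13 eIF4AIII/Y14 and 8 Y14/eIF4AIII peaks, and at the peak of 1451 nt the Y14/eIF4AIII list covers 98.3% in 2 peaks.

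The widest peaks of the other lists were touched by both remaining lists. In Y14/eIF4AIII the peaks of 873 nt on 3L, + strand (229980 to 230852; 799 reads per base) and of 750 nt on 2L, + strand (5035064 to 5035813; 349.6) followed the 1012 nt peak. The first was covered to 66.1% by eIF4AIII/Y14 and to 12.3% by Btz/eIF4AIII, whose 2 peaks there measured 52 and 55 nt. The second was covered to 97.1% by a single Btz/eIF4AIII peak of 728 nt that began at the same base. In eIF4AIII/Y14 the widest peaks were 456 nt and 391 nt on 3L, + strand (225727 to 226182 and 230157 to 230547) and 361 nt on 2L, - strand (21679258 to 21679618), at 172, 77.5 and 81.7 reads per base. Y14/eIF4AIII covered 84.9%, 100% and 48.5% of them and Btz/eIF4AIII 45.2%, 14.1% and 62.6%. The widest peaks of these lists were thus covered to very different degrees, from 12.3% to 100%, by the other lists.

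Large summed depth was a matter of depth in some places and of width in others. In Btz/eIF4AIII the peaks with the largest summed depth were the 169 nt peak on 2R at 13504260 described above, with 11601219, the 2283 nt peak, with 6854932, and the 1958 nt peak, with 4323065. In Y14/eIF4AIII the largest were the 173 nt peak at the same place on 2R, with 4855894, a 525 nt peak on 3R, + strand (7049286 to 7049810), with 2789320, and a 261 nt peak on 3L, - strand (827772 to 828032), with 1918920. In eIF4AIII/Y14 the 164 nt peak on 2R had 662585, and 2 peaks on 2L, - strand, of 216 nt (8226317 to 8226532) and 232 nt (8224052 to 8224283), had 342423 and 245753. These peaks on 2L were deep within the eIF4AIII/Y14 list, at 1585 and 1059 reads per base, and ranked 279th and 511th in it. The Y14/eIF4AIII peaks that touched them had no more than 58 and 38.8, beside a median depth of 34 in the Y14/eIF4AIII list. The Btz/eIF4AIII peaks that touched them had 368 and 558 at the 216 nt peak, and 476 and 6.12 at the 232 nt peak. The median depth in the Btz/eIF4AIII list was 95.3. In the same stretch of 2L, an eIF4AIII/Y14 peak of 319 nt (8222200 to 8222518) held the most peaks of the other lists in its list, 2 of Btz/eIF4AIII and 3 of Y14/eIF4AIII.

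Wide peaks with both ends identical in another list were all of 1 pair among the 5 with the largest summed depth, Btz/eIF4AIII with Y14/eIF4AIII. They measured 163 nt on 3L, - strand (23087784 to 23087946), 241 nt on 3L, + strand (16646869 to 16647109), 226 nt on 3L, - strand (5756148 to 5756373), 183 nt on 2L, - strand (5018575 to 5018757) and 162 nt on 2L, - strand (17477399 to 17477560). Within the borders of these 5 the eIF4AIII/Y14 list had shorter peaks only, which covered 45.9% to 75.9% of them. The depth of the identical intervals differed between the lists without a fixed order. At the 163 nt interval it was 3836 in Btz/eIF4AIII and 258 in Y14/eIF4AIII, but at the 241 nt interval 1062 and 2437. Neither these depths nor the summed depths that chose the 5 are scaled between lists. Over all wide peaks, 8 Btz/eIF4AIII peaks matched a Y14/eIF4AIII peak at both ends. Of wide eIF4AIII/Y14 peaks, 6 matched a Btz/eIF4AIII peak and 1 a Y14/eIF4AIII peak. An interval of 224 nt on 2L, + strand (5984719 to 5984942), was identical in all 3 lists.

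Wide peaks lay less often on X than narrower peaks in all 3 lists. X carried 12 wide eIF4AIII/Y14 peaks, 7.19% of the wide ones (3.77 to 12.2), against 15.2% of the narrower ones. It carried 164 wide Btz/eIF4AIII peaks (11.1%; 9.51 to 12.8), against 15.0%, and 20 wide Y14/eIF4AIII peaks (6.08%; 3.75 to 9.23), against 14.8%. The median depth of wide peaks on X was 74.0 reads per base in eIF4AIII/Y14, 217 for Btz/eIF4AIII and 281 in Y14/eIF4AIII. For all wide peaks it was 76.1, 265 and 340.1. Only in Btz/eIF4AIII was X the lowest of the large arms. In eIF4AIII/Y14 the wide peaks of 2L and 3L had medians of 73.3 and 66.7, and in Y14/eIF4AIII those of 3R had 258. Narrower peaks on X had medians of 44.4, 89 and 32.5, beside 52, 86.9 and 32 for all narrower peaks. The part of depth in the lower share on X was not tested. The other large arms differed from list to list. Chromosome 4 had 1 wide eIF4AIII/Y14 peak (0.599% of the wide ones), against 1.77% of the narrower ones, 20 wide Btz/eIF4AIII peaks (1.35%), against 1.65%, and 3 wide Y14/eIF4AIII peaks (0.912%), against 1.44%. On U and Uextra, which hold unplaced sequence, there were 2, 8 and 17, which in Y14/eIF4AIII is 5.17% of the wide peaks (3.04 to 8.14), against 2.77% of the narrower ones. Heterochromatic sequences held 0, 6 and 0 wide peaks in eIF4AIII/Y14, Btz/eIF4AIII and Y14/eIF4AIII, against 192, 185 and 106 narrower ones. The 6 were 3.14% of the Btz/eIF4AIII peaks there (1.16 to 6.71), an interval that includes the 4.07% of the whole list.

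Some windows of 10 kb held many wide peaks. Narrower peaks were counted only in the 3L window below, so whether wide peaks gather more than peaks in general was not tested. The fullest window was on 2L, - strand, from 8220001, with 11 wide peaks of eIF4AIII/Y14, 8 of Btz/eIF4AIII and 9 of Y14/eIF4AIII, which is where the deep eIF4AIII/Y14 peaks named above lie. On 2L, + strand, from 5030001, there were 5, 8 and 8, and on 2L, - strand, from 5010001, there were 0, 12 and 9. A window on 3L, + strand, from 13840001, had 19 wide Btz/eIF4AIII peaks and 0 of either other list. Those 19 had a median width of 234 nt and at most 894 nt, and depths of 89.0 to 1700 reads per base with a median of 491. The same window held 22 narrower Btz/eIF4AIII peaks with a median width of 88.5 nt and a median depth of 353, so that it was full of peaks of that list at all widths. The other lists were not empty there: eIF4AIII/Y14 had 11 narrower peaks of at most 40 nt with a median depth of 39, and Y14/eIF4AIII 14 narrower peaks of at most 118 nt with a median depth of 23.5. The window was singled out after its counts had been seen.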

How the data were processed

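EJC-bound RNA of S2 cells was sequenced in 3 purifications with 1 library each, grouped by the labels. For each library the authors deposited a stranded peak list with a signal value per peak, used here as mean read depth per base. Its values carry no scaling to library size and library read totals are not stated, so depths were compared only within a list. Per the file headers the tracks are called clipped and merged, and the track name of the eIF4AIII/Y14 list mentions only Y14. Bowtie and SAMtools appear, without versions, in the submitters' processing notes. The sources used here do not give the peak caller, its threshold, the read length or the build. Sequence names are those of release 5, and the annotation at hand is of release 6, so no gene, exon or sequence is given.

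Widths, overlaps (same strand, at least 1 bp, or the other peak wholly inside), identical ends, gaps and neighbours were computed in Python 3.11.15 with pandas 2.3.3, NumPy 2.4.6, SciPy 1.17.1 and matplotlib 3.10.9, by functions tested on simulated data. Upstream and downstream follow the strand column. The intervals printed are exact (Clopper-Pearson) 95% binomial intervals that treat peaks as independent and cover counting error only. Reads carry no molecular identifiers. Whole-number depth used a tolerance of 1e-09. Regions named are, in each list, the 3 widest wide peaks, the 3 of largest summed depth and the one holding most other peaks, the 5 leading places wide in all 3 lists, and up to 5 wide peaks with both ends identical in another list. The members, measures and lists were chosen with earlier results of these data known.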

Additional observations from a re-analysis of the deposited data

Results flagged for a closer look

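Several differences between wide and narrower peaks went in opposite directions in different lists; whether the lists differ was not tested, as each has 1 library. Among peaks touched by another list, the share with an identical end was 3.97 percentage points higher in wide than in narrower eIF4AIII/Y14 peaks and 0.303 points higher in Y14/eIF4AIII, but the difference was -6.93 points in Btz/eIF4AIII. The share of wide peaks on 2L less that of narrower peaks was 10.0 points in eIF4AIII/Y14, -0.154 points for Btz/eIF4AIII and 5.09 for Y14/eIF4AIII. On 2R it was 6.20, -0.294 and -4.54 points in the same lists. On 3L it was -3.81 points in eIF4AIII/Y14, 4.18 points for Btz/eIF4AIII and 5.34 for Y14/eIF4AIII, and on 3R -3.35, 0.977 and 1.58 points. Single places weigh in these shares. The 10 kb window on 2L, - strand, from 8220001 alone held 11 of the 45 wide eIF4AIII/Y14 peaks of 2L. It held 8 of the 257 of Btz/eIF4AIII and 9 of the 74 of Y14/eIF4AIII, so differences of whole arms cannot be read from these values.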

How the results depend on the processing

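Values are given for eIF4AIII/Y14, Btz/eIF4AIII and Y14/eIF4AIII in this order. Of 117 alternative values, 36 lay within the interval of the reported value and 81 outside it. For shares of summed depth that interval counted every base of every read as independent. It was therefore far too narrow, and all alternatives of these shares lay outside it. For median depth the interval came from ranks, and for middles per kb from a Poisson count. No direction between wide and narrower peaks turned except in the middles per kb of eIF4AIII/Y14 at 120 nt (10.6, against 10.4). The minimum set at 2 or 3 times the commonest width was added after seeing the data, as were the bases and the depth limit at the 3' end; the other alternatives were planned.

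With minimum widths of 120 nt and 200 nt, wide shares were 1.16%, 8.02% and 4.56%, and 0.129%, 1.53% and 0.621%. Their shares of summed depth were 6.17%, 37.0% and 21.3%, and 1.39%, 15.4% and 5.97%. In the deeper 50% of each list wide shares were 0.647%, 6.73% and 3.46% and depth shares 3.52%, 26.2% and 14.1%. With lists cut to equal length by depth, the share was 0.628% in eIF4AIII/Y14 and 6.95% in Btz/eIF4AIII. On the main arms and chromosome 4 alone the depth shares were 3.40%, 25.5% and 13.96%. At 2 times the commonest width the share was 4.79% in eIF4AIII/Y14, and depth shares were 16.7%, 25.1% and 13.8%. At 3 times the shares were 1.16%, 0.981% and 0.379% and the depth shares 6.17%, 11.9% and 4.92%. The median depth of wide Btz/eIF4AIII peaks was 239 at 120 nt and 325 at 200 nt, and that of wide Y14/eIF4AIII peaks 265 at 120 nt.

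A whole peak of another list was held by 55.9%, 65.2% and 66.5% of wide peaks at 120 nt, by 85.8% in Btz/eIF4AIII and 92.0% in Y14/eIF4AIII at 200 nt, and by 53.1%, 54.5% and 60.8% in the deeper 50% of each list. Counting middle bases gave 93.4%, 79.4% and 95.1%, any overlap 97.6%, 80.9% and 97.3%, and overlap with at least 50% of the other peak 91.6%, 79.5% and 95.1%. Middles per kb at 200 nt were 8.61 in eIF4AIII/Y14 and 8.35 in Btz/eIF4AIII. Ends recurred within 2 nt in 49.7%, 37.0% and 45.9% and within 5 nt in 56.9%, 44.0% and 55.3%; at 200 nt in 31.1%, 31.3% and 42.0%; at 120 nt in 28.5% in Y14/eIF4AIII; and in 22.2% of Btz/eIF4AIII in the deeper 50%. Overlap of wide with wide peaks was 14.3% at 120 nt and 9.53% at 200 nt in Btz/eIF4AIII, and 32.9%, 8.91% and 35.3% when 50% of both peaks had to overlap. Gaps inside wide peaks made 0.204%, 1.75% and 0.396% of gaps of any length, 1.59%, 12.2% and 2.98% at 25 to 49 nt, and, in eIF4AIII/Y14, 0.287% at 76 to 99 nt. The share of wide Y14/eIF4AIII peaks on X was 10.2% at 120 nt. Coverage by eIF4AIII/Y14 inside the 3' end of wide Btz/eIF4AIII peaks was 33.1% at 10 nt and 28.6% at 20 nt in the deeper 50% of each list, against 10.8% at the 5' side there.

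No pairing of libraries was possible because each purification has 1 library, and for the same reason no library was left out. RNA below the calling threshold, which is not stated, is in no list.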
